A study of Homo sapiens with 6 samples.

Results

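The NRF2 axis is described here through 9 genes. They are NFE2L2, which encodes the transcription factor NRF2, KEAP1, which encodes its inhibitor, and the enzyme genes NQO1, GCLM, GCLC, TXNRD1, SRXN1, HMOX1 and ME1. The genes were chosen by symbol, as the entries of the deposited count table that carry these names, and all 9 were found among its 20332 genes. All 9 also passed the filter on low counts, which left 12941 genes for testing.

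Huh-7, an established line of human hepatocellular carcinoma, was the source of the RNA sequenced to find genes regulated by RAC3, a signalling protein. Negative controls (3 samples, genotype WT in the labels) were compared with cells that stably overexpressed RAC3 (3 samples). Lentiviruses carrying RAC3 were used for the stable lines, and both groups share the Huh-7 background. The promoter of the transgene, the vector of the controls and whether a line was grown from a single clone are not given in the sources used here. The titles name RAC3 for all 3 overexpressing samples, but the genotype label names RAC3 only for sample 1, RAC4 for sample 2 and RAC5 for sample 3. RAC3 mRNA itself had 35.6, 31.4 and 32.8 CPM (counts per 1000000 of the library, with library sizes scaled by the TMM method) in negative controls 1, 2 and 3, and 232.6, 239.6 and 225.4 CPM in RAC3 samples 1, 2 and 3. All 3 RAC3 samples were thus alike in RAC3 mRNA, at 7.003 times the control level (log2 fold change 2.81, adjusted p = 9.6e-18 by the Benjamini-Hochberg method in the quasi-likelihood test of edgeR).

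Library totals were 14368764, 15269997 and 18199888 counts for negative controls 1, 2 and 3, and 17332318, 16225766 and 13855762 for RAC3 samples 1, 2 and 3. Base composition differed between the groups. For each rise of 10 percentage points in the GC content of a gene's transcripts, log2 CPM relative to the mean of all samples changed by 0.13, 0.06 and 0.06 in the negative controls and by -0.13, -0.05 and -0.07 in the RAC3 samples. The fold changes of the 12863 tested genes with a GC value were therefore also fitted after the GC trend of each library had been removed. For the members and the other named redox genes, this value is given where it changed a call, turned a direction or moved a fold change by more than 1.5 times. It is not given for the cell type markers, AGPS or FDXR, so how these genes fare in that fit is not shown. A true difference between the groups that follows GC content and a bias in library preparation cannot be told apart here.

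The hepatocyte markers were abundant, with all 9 in the table and summed levels of 5511, 5564 and 5595 CPM in the negative controls and 5584, 5063 and 5207 CPM in the RAC3 samples, led by ALB. Of these, AFP, APOB and FGB were called higher (FGB by a log2 fold change of 0.30) and TTR and TF lower (TF by -0.56). Of the other cell types, the 6 fibroblast markers summed to 232.8, 242.5 and 249.1 CPM in the negative controls and to 285.1, 272.7 and 279.5 CPM in the RAC3 samples. LUM was the most abundant of them. LUM (0.22) and COL1A2 (0.51) were called higher and COL1A1 lower (-0.22), while ACTA2 had 0 to 7 counts in a sample. The 5 immune markers, led by CD14, summed to 42.6, 46.5 and 49.1 CPM in the negative controls and to 38.3, 38.9 and 40.9 CPM in the RAC3 samples. CD14 was called lower (-0.37) and CD68 higher (0.47). The defining immune genes PTPRC and CD3E were at or near 0, with 0 to 9 and 0 to 2 counts in a sample. The 4 endothelial markers summed to between 2.53 and 3.77 CPM in a sample, led by PECAM1, and KDR had 0 counts in 5 of the 6 samples. The fibroblast and immune sums thus separated the groups, although genes within each of these lists went in opposite directions, and their part in the results on redox genes was not tested. In such bulk samples, fewer cells that express a gene and less RNA per cell cannot be told apart.

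NRF2 is a basic leucine zipper factor that is controlled mainly through the stability of its protein. KEAP1 holds NRF2 in the cytoplasm and presents it to a ubiquitin ligase built on cullin 3, so that NRF2 is degraded in unstressed cells. Oxidants and electrophiles modify cysteines of KEAP1, NRF2 escapes degradation, pairs with small MAF proteins and binds antioxidant response elements in genes for glutathione synthesis, thioredoxin reduction, quinone reduction, NADPH supply and haem breakdown. In the liver this programme serves detoxification, and in hepatocellular carcinoma mutations of NFE2L2 or KEAP1 can leave it constantly active. The protein and its position in the cell were not measured here.

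The core letters of the antioxidant response element, TGACNNNGC, were searched on both strands of RefSeq promoter windows of 300 bases (GRCh38.p14), from 250 bases before to 50 bases after each annotated start. The letters TGACTCA of the AP-1 site overlap with this motif. Of the 9 members, 8 had a window, 11 windows in all, and HMOX1 had no entry. A match was present in 5 of the 11 windows, against 13.3% of all 35116 windows. By gene, 4 of the 8 members had a match, but genes with more windows have more chances, and no share over all genes was computed. The enzyme genes were chosen as antioxidant response genes, which this comparison does not allow for. The stretches around 3 matches are shown because GCLM and TXNRD1 were higher with RAC3 overexpression and ME1, with the same core letters, was not. Capitals mark the motif, and each stretch reads from 5′ to 3′ along the strand of its gene.
GCLM: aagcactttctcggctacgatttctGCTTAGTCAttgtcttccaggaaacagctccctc
TXNRD1: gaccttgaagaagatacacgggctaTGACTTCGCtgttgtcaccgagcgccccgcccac
ME1: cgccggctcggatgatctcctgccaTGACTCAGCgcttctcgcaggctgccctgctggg
The GCLM stretch lies at chr1:93909431-93909489 on the minus strand, and its motif reads TGACTAAGC on the opposite strand. In GENCODE release 29, 26 of its 59 bases fall in an exon of GCLM and the others lie upstream of the gene. The TXNRD1 stretch at chr12:104215655-104215713 on the plus strand and the ME1 stretch at chr6:83431155-83431213 on the minus strand lie upstream of their genes, outside annotated exons of these genes. The ME1 match, TGACTCAGC, includes the letters of the AP-1 site. The TXNRD1 and ME1 windows of these stretches each held another match, and a second TXNRD1 window and 1 of the 2 KEAP1 windows also held matches. The KEAP1 window repeated the TGACTAAGC of GCLM. No match was found in the windows of NFE2L2, NQO1, GCLC and SRXN1, which says only that these letters are not in those windows.

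The level per transcript length differed widely among the members. In the negative controls, NQO1 was the most abundant, with a deposited FPKM of 319.5 ± 4.26 (SD, n = 3), followed by NFE2L2 with 69.0 ± 3.28, TXNRD1 with 62.9 ± 3.53 and KEAP1 with 48.4 ± 4.09. SRXN1 with 38.1 ± 0.987 and ME1 with 37.6 ± 0.230 were not separated, since their samples overlapped. GCLM with 15.5 ± 1.13 and HMOX1 with 14.7 ± 0.816 overlapped as well, and GCLC was the lowest with 10.9 ± 0.912 FPKM (SD, n = 3 for each). With RAC3 overexpression the order of the means was the same, and the neighbours whose samples overlapped were HMOX1 and GCLC, at 13.8 ± 0.815 and 13.5 ± 1.69 FPKM (SD, n = 3).

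**Figure D1:**
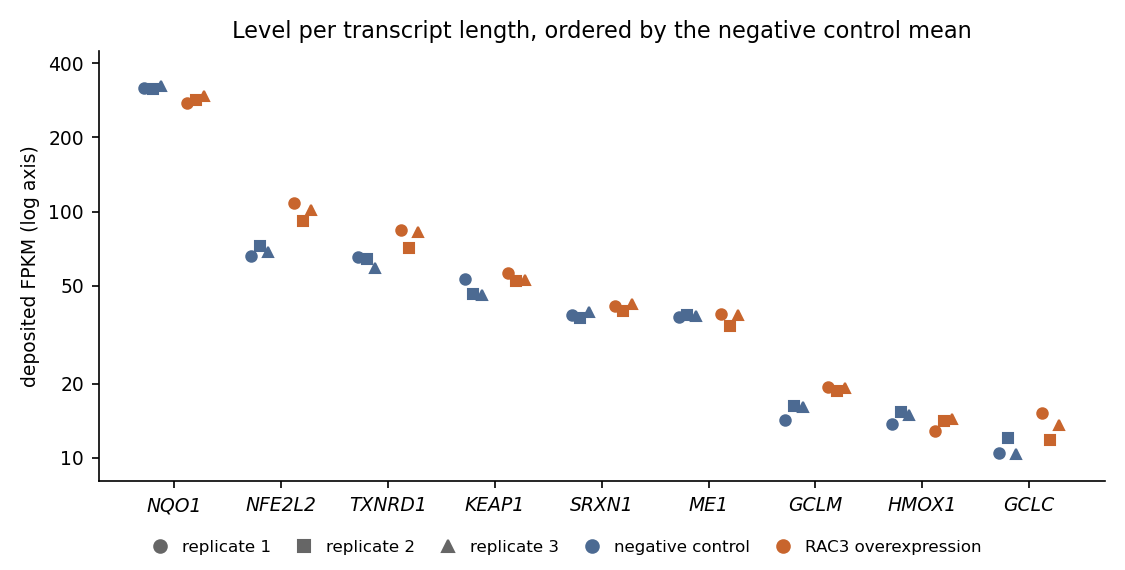
Deposited FPKM of the 9 genes in each sample on a log axis, with genes ordered by the mean of the negative controls (blue) and RAC3 overexpression samples beside them (orange). NQO1 lies highest, at a mean of 319.5 in the negative controls, and GCLC lowest, at 10.9.

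With RAC3 overexpression, NFE2L2 mRNA rose to 1.405 times the control level and 3 enzyme genes, TXNRD1, GCLM and GCLC, rose to 1.187, 1.197 and 1.193 times, whereas NQO1 fell to 0.866 of the control level. KEAP1, SRXN1, HMOX1 and ME1 did not pass the test. With the GC trend removed, GCLM and GCLC no longer passed, while KEAP1 (higher) and ME1 (lower) did. Genes were called at an adjusted p below 0.05 from edgeR's quasi-likelihood test. By this rule 4 of the 9 members were higher, against 13.3% of all genes tested, and 1 of the 9 was lower, against 15.3% of all genes tested. After removal of the GC trend, 3 of the 9 were higher and 2 were lower, against 9.61% and 10.7% of the genes in that fit. The calls over all genes were 1717 higher and 1974 lower, and with library sizes alone as the scale they were 2613 higher and 1381 lower. On the TMM scale the groups did not overlap for 5 of the 9 members, against 42.5% of all genes. The median log2 fold change was 0.10 over the members and 0.00 over all genes tested. The median of the members was 0.06 without negative control 2, 0.17 without negative control 1 and 0.16 with library sizes alone as the scale, which also moved the median of all genes to 0.06. The study's thresholds, a fold of more than 1.5 up or down and p below 0.05, were applied here with p before adjustment. At these thresholds 0 of the 9 members passed with edgeR, DESeq2 or limma-voom, against 4.68% of all genes with edgeR. At an unadjusted p below 0.05 alone, 5 of the 9 passed with each of these tools, against 39.2% of all genes with edgeR, 34.2% with DESeq2 and 39.3% with limma-voom. With RAC3 samples 2 and 3 left out together, the log2 fold change of NFE2L2 was 0.598, above the study's fold threshold (0.58 in log2).

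**Figure D2:**
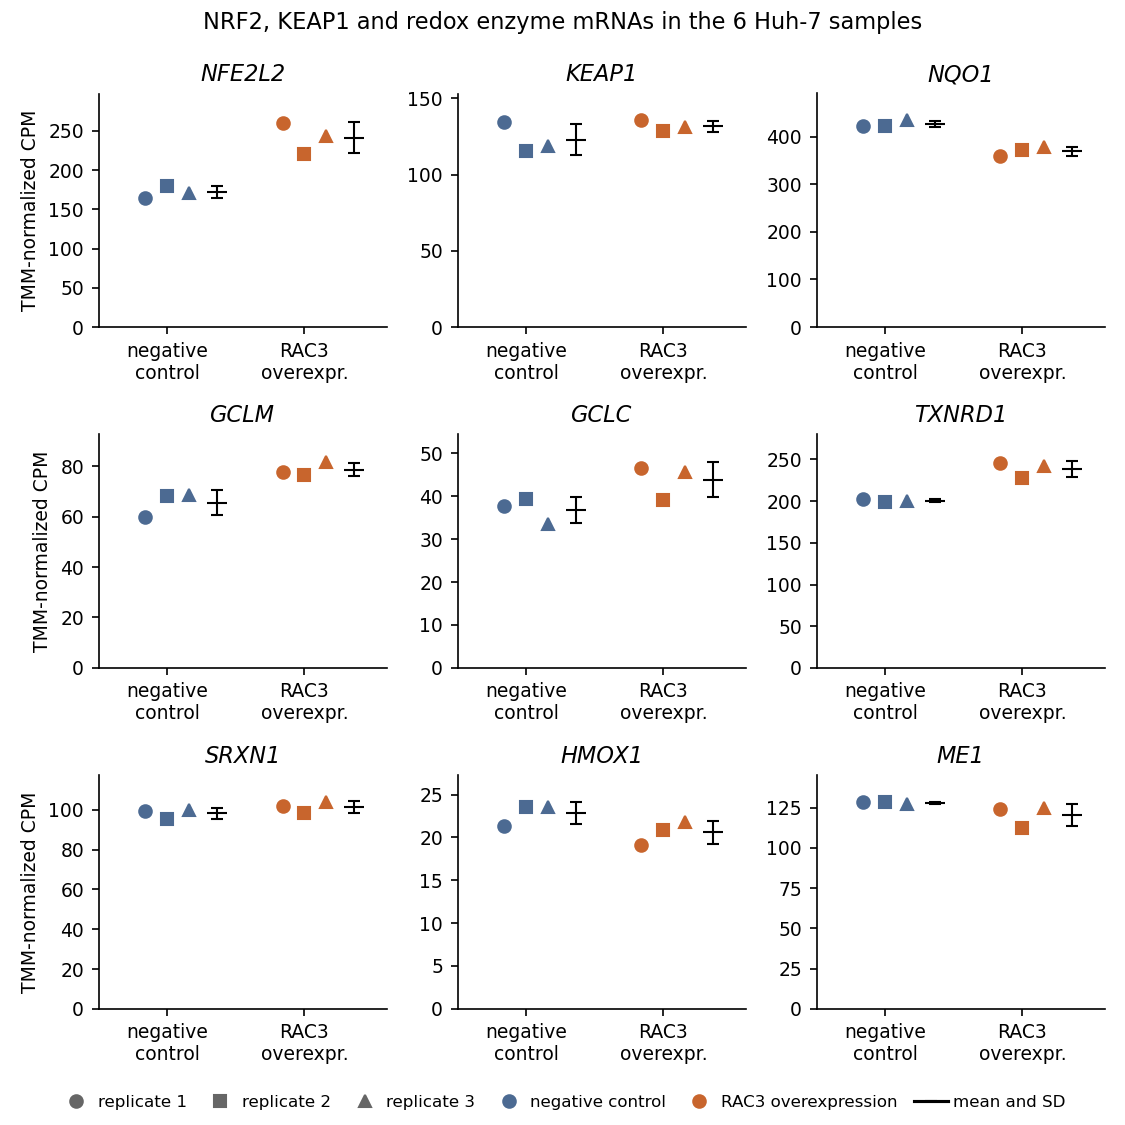
TMM-normalized CPM of the 9 genes in each sample, with negative controls in blue, RAC3 overexpression in orange, a marker shape for each replicate number, and the mean and SD of each group in black. NFE2L2, GCLM and TXNRD1 lie higher in all RAC3 samples, NQO1 and ME1 lie lower in all of them, and the groups overlap for KEAP1, GCLC, SRXN1 and HMOX1.

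Of the regulators, NFE2L2 (ENSG00000116044, chr2:177227595-177392697 on the minus strand, GRCh38) had 164.7, 180.2 and 170.2 CPM in negative controls 1, 2 and 3 and 259.9, 220.7 and 242.9 CPM in RAC3 samples 1, 2 and 3. Every RAC3 sample lay above every negative control, and the distance between the nearest samples was larger than the whole spread of the controls. The mean rose from 171.7 ± 7.86 to 241.2 ± 19.7 CPM (SD, n = 3 per group). The log2 fold change was 0.49 (adjusted p = 3.2e-06 in the quasi-likelihood test of edgeR, standard error 0.0552), a fold of 1.405 with a 95% interval from 1.297 to 1.522. Of all genes tested, 3.802% had a larger log2 fold change. An exon of AGPS on the opposite strand shares 54 bases with NFE2L2, and the library kit is not stated to keep the strand. AGPS had 1527 to 2334 counts in a sample and a log2 fold change of 0.16. AC019080.1 on the same strand shares 1054 exon bases with NFE2L2 and the antisense gene AC079305.1 shares 190, and neither is in the count table, so some reads counted for NFE2L2 could come from these genes.

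KEAP1 (ENSG00000079999, chr19:10486120-10503741 on the minus strand), the substrate adaptor that marks NRF2 for degradation, had 134.4, 115.4 and 118.5 CPM in the negative controls and 135.7, 128.6 and 131.1 CPM in the RAC3 samples. Negative control 1 lay among the RAC3 samples, so the groups overlapped. The log2 fold change was 0.10 (adjusted p = 0.18 from the same edgeR test, standard error 0.0567), and the 95% interval of the fold ran from 0.99 to 1.17. KEAP1 has a GC content of 61.6%, and with the GC trend removed its log2 fold change was 0.29 and passed the test (adjusted p = 0.0004 from edgeR). It also passed without negative control 1, at 0.17 (adjusted p = 0.023 from edgeR), and with library sizes alone as the scale, at 0.16 (adjusted p = 0.033 from edgeR). Without negative control 2 its log2 fold change was 0.06 and did not pass (adjusted p = 0.58 from edgeR). Over its alternatives the adjusted p of KEAP1 ran from 0.0004 to 0.58.

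The balance of factor and inhibitor was followed as the log2 ratio of NFE2L2 to KEAP1 in FPKM, a ratio within each library that needs no scaling. It was 0.31, 0.65 and 0.58 in negative controls 1, 2 and 3 and 0.94, 0.81 and 0.94 in RAC3 samples 1, 2 and 3. NFE2L2 exceeded KEAP1 in every sample, and each of the 3 RAC3 samples exceeded each of the 3 controls. The mean log2 ratio went from 0.51 ± 0.18 to 0.90 ± 0.07 (SD, n = 3 per group), a difference of 0.39 (two-sided exact permutation test, p = 0.10, the smallest value that 3 samples against 3 allow). Because KEAP1 and NFE2L2 differ in GC content (61.6% and 45.2%), the GC trend of the libraries enters this ratio. With that trend removed, the separate log2 fold changes were 0.41 for NFE2L2 and 0.29 for KEAP1.

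**Figure D3:**
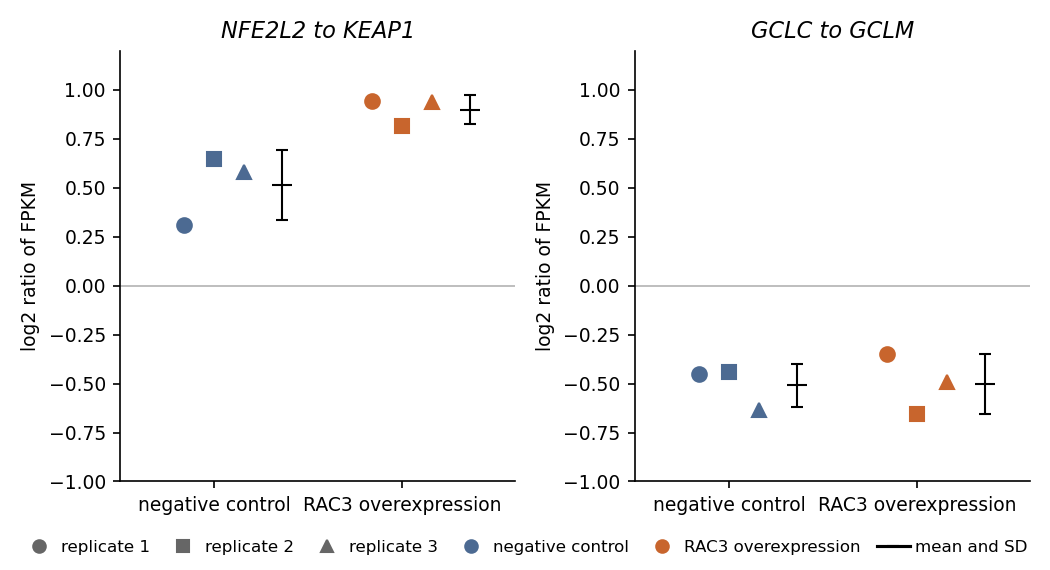
Log2 ratios of FPKM within each sample for NFE2L2 to KEAP1 (left) and GCLC to GCLM (right), with negative controls in blue, RAC3 overexpression in orange, and group means with SD in black. The first ratio is higher in all RAC3 samples, with means of 0.51 and 0.90, and the second overlaps between the groups, with means of -0.51 and -0.50.

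Glutathione synthesis begins with glutamate-cysteine ligase, made of a catalytic subunit (GCLC) and a modifier subunit (GCLM). GCLM (ENSG00000023909, chr1:93885205-93909456 on the minus strand) had 59.8, 68.2 and 68.5 CPM in the negative controls and 77.5, 76.6 and 81.6 CPM in the RAC3 samples. All RAC3 samples lay above all controls, and negative control 1 was the lowest sample. The mean rose from 65.5 ± 4.93 to 78.6 ± 2.65 CPM (SD, n = 3 per group) at a log2 fold change of 0.26 (adjusted p = 0.004 from the same edgeR test, standard error 0.0620). This call was lost when the GC trend was removed, at a log2 fold change of 0.15 (adjusted p = 0.067 from edgeR, in a range from 0.00091 to 0.079 over its alternatives), and with RAC3 samples 2 and 3 left out together (0.24).

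GCLC (ENSG00000001084, chr6:53497341-53616970 on the minus strand) had 37.7, 39.2 and 33.5 CPM in the negative controls and 46.7, 39.2 and 45.5 CPM in the RAC3 samples. RAC3 sample 2 was level with negative control 2, and the other RAC3 samples lay above all controls. The means were 36.8 ± 2.99 and 43.8 ± 4.04 CPM (SD, n = 3 per group), with a log2 fold change of 0.25 (adjusted p = 0.023 from the same edgeR test, standard error 0.08). The call depended on single libraries: it was lost without RAC3 sample 1 (log2 fold change 0.20, adjusted p = 0.11 from edgeR), without RAC3 sample 3 (0.23, adjusted p = 0.092) and without negative control 3 (0.18, adjusted p = 0.13). It was also lost with the GC trend removed, at 0.16 (adjusted p = 0.14 from edgeR, the highest over its alternatives, which went down to 0.0061). An exon of the noncoding gene AL033397.1 on the same strand shares 529 bases with GCLC.

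Both subunits were thus higher by similar amounts. Their log2 ratio in FPKM, GCLC to GCLM, was -0.45, -0.44 and -0.63 in negative controls 1, 2 and 3, compared with -0.35, -0.66 and -0.49 in RAC3 samples 1, 2 and 3. These values overlapped, and the modifier subunit exceeded the catalytic subunit in every sample. The means were -0.51 ± 0.11 and -0.50 ± 0.15 (SD, n = 3 per group; two-sided exact permutation test, p = 1.0). The difference of 0.01 was smaller than the spread within either group and changed sign with raw counts (-0.01).

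In the thioredoxin system, TXNRD1 encodes the cytosolic reductase that recharges thioredoxin with electrons from NADPH, and SRXN1 encodes sulfiredoxin, which repairs overoxidized peroxiredoxins. TXNRD1 (ENSG00000198431, chr12:104215779-104350305 on the plus strand) had 202.2, 199.0 and 200.6 CPM in the negative controls and 245.4, 227.5 and 241.7 CPM in the RAC3 samples. The controls were nearly equal, and every RAC3 sample lay above them, RAC3 sample 2 by the least. The mean rose from 200.6 ± 1.596 to 238.2 ± 9.44 CPM (SD, n = 3 per group) at a log2 fold change of 0.25 (adjusted p = 0.00036 from the same edgeR test, standard error 0.0442). The gene length behind the deposited FPKM, computed from counts and FPKM, varied between samples from 2984 to 3358 bases for TXNRD1 and from 3151 to 3516 bases for GCLC, and how it was set is not given in the sources used here.

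SRXN1 (ENSG00000271303, chr20:646615-653370 on the minus strand) had 99.2, 95.2 and 100.1 CPM in the negative controls and 101.9, 98.4 and 104.1 CPM in the RAC3 samples. On this scale the groups overlapped and all samples lay within a narrow band, whereas in deposited FPKM all RAC3 samples (39.5 to 41.9) lay above all controls (37.0 to 39.0). The log2 fold change was 0.05 (adjusted p = 0.53 from the same edgeR test, standard error 0.0516), and the 95% interval of the fold ran from 0.959 to 1.11. With the GC trend removed it was 0.10 and was not called either. It was 0.02 without negative control 2 and 0.10 with library sizes alone as the scale, again without a call. AL121758.1, a protein-coding gene annotated on the same strand, shares 2292 exon bases with SRXN1 and had 0 counts in all 6 samples, so reads of the shared exons cannot be assigned to one of them from this table.

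NQO1 encodes a quinone reductase of the cytosol and is a standard readout of NRF2 activity. NQO1 (ENSG00000181019, chr16:69706996-69726951 on the minus strand) had 422.7, 423.1 and 434.1 CPM in the negative controls and 359.4, 371.3 and 378.1 CPM in the RAC3 samples. Every RAC3 sample lay below every control, opposite in direction to NFE2L2, TXNRD1, GCLM and GCLC. The mean fell from 426.6 ± 6.42 to 369.6 ± 9.49 CPM (SD, n = 3 per group) at a log2 fold change of -0.21 (adjusted p = 0.00066 from the same edgeR test, standard error 0.0395), and the fold was 0.866 with a 95% interval from 0.818 to 0.917. An antisense gene, AC092115.2, shares 575 exon bases with NQO1 and is not among the genes of the count table.

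ME1, the cytosolic malic enzyme, produces NADPH from malate. ME1 (ENSG00000065833, chr6:83210389-83431071 on the minus strand) had 128.5, 128.5 and 127.1 CPM in the negative controls and 124.4, 112.6 and 124.8 CPM in the RAC3 samples. On this scale all RAC3 samples lay below all controls, by a small margin except in RAC3 sample 2. In deposited FPKM the groups overlapped, with RAC3 samples 1 and 3 at 38.2 and 38.0, above the controls at 37.4 to 37.8, and RAC3 sample 2 at 34.2, below them. The log2 fold change was -0.09 (adjusted p = 0.23 from the same edgeR test, standard error 0.0517). It was -0.04 without RAC3 sample 2 (adjusted p = 0.63 from edgeR) and -0.03 with library sizes alone as the scale. ME1 had the lowest GC content of the members, 39.5%, and with the GC trend removed its log2 fold change was -0.25 and passed the test (adjusted p = 0.00053 from edgeR, in a range up to 0.72 over its alternatives).

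HMOX1 encodes haem oxygenase 1, which opens the haem ring and releases iron. HMOX1 (ENSG00000100292, chr22:35380361-35394214 on the plus strand) had 21.4, 23.6 and 23.5 CPM in the negative controls and 19.1, 20.8 and 21.8 CPM in the RAC3 samples. RAC3 sample 3 lay above negative control 1, so the groups overlapped. The log2 fold change was -0.15 (adjusted p = 0.21 from the same edgeR test, standard error 0.0888), with a 95% interval of the fold from 0.790 to 1.02. With the GC trend removed the direction turned, at 0.01 (adjusted p = 0.93 from edgeR, in a range down to 0.14 over its alternatives), and HMOX1 has a GC content of 60.8%.

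**Figure D4:**
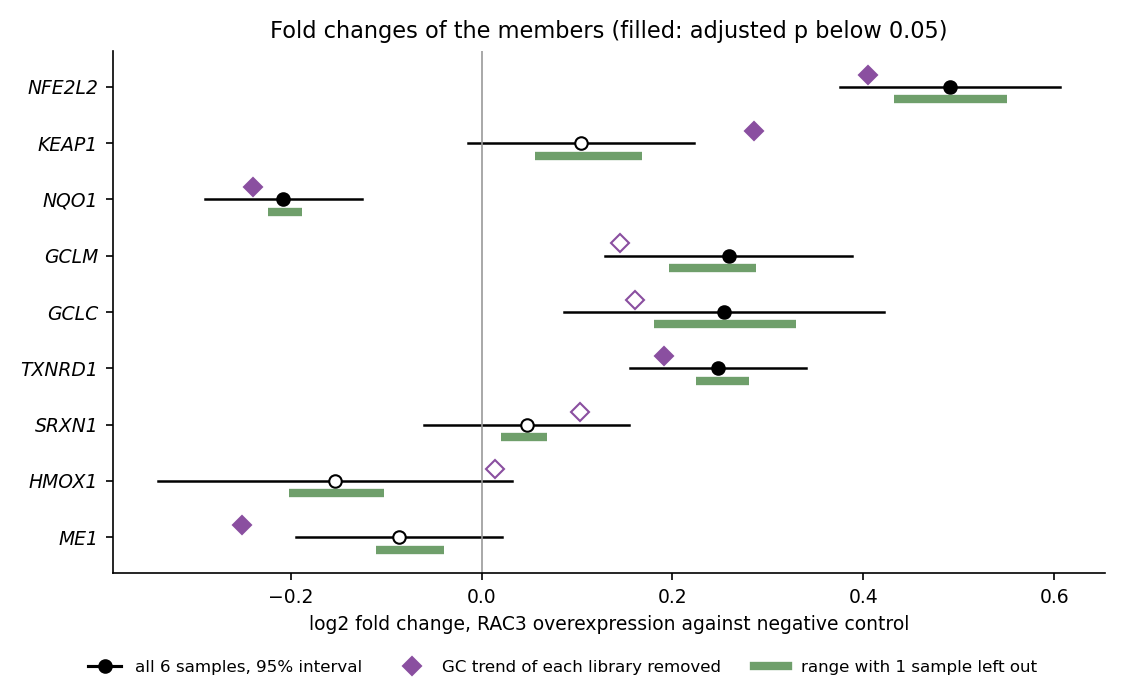
Log2 fold changes of the 9 genes between RAC3 overexpression and negative control, with 95% intervals (circles), after removal of the GC trend of each library (diamonds) and as the range with each sample left out in turn (green bars), with filled symbols at an adjusted p below 0.05. NFE2L2, TXNRD1 and NQO1 are filled in both fits, GCLM and GCLC only without GC removal, and KEAP1 and ME1 only with it.

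Genes with the most similar pattern over the 6 samples were taken among 11221 genes with a mean of at least 50 counts. For NFE2L2 these were DPP8 and TRIP12 (Pearson r = 0.997 each, n = 6 samples), for TXNRD1 they were STK39 and VCPIP1 (r = 0.998 and 0.996), and for NQO1 they were TYRO3 and LRRC61 (r = 0.998 each). The samples form the groups compared, so these values describe the group difference as well as the variation within groups, and they are given as a description.

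Around the members, the 18 regulators of NRF2 were all tested, and 5 were higher and 3 lower, which is 27.8% and 16.7% against 13.3% and 15.3% of all genes. Their median log2 fold change was 0.01, and -0.07 over the 16 regulators outside the members. The median of all 18 was -0.05 without RAC3 sample 2, -0.02 without negative control 3, 0.04 without RAC3 sample 1, 0.06 with the GC trend removed and 0.07 with library sizes alone as the scale. Besides NFE2L2, the higher genes were BACH1, GSK3B, BACH2 and CUL3. BACH1, a repressor that competes with NRF2 for antioxidant response elements, rose from 49.6 ± 3.45 to 64.0 ± 1.71 CPM (SD, n = 3 per group; log2 fold change 0.37, adjusted p = 0.00028 from edgeR, and 0.24 with the GC trend removed). GSK3B, a kinase that promotes a KEAP1-independent degradation of NRF2, had a log2 fold change of 0.32. CUL3, the scaffold of the KEAP1 ligase, had 0.21, which became 0.03 and was not called with the GC trend removed, and was also not called without negative control 1 (0.12), RAC3 sample 1 (0.16) or RAC3 sample 3 (0.22). The call of BACH2 (0.27) was lost with DESeq2 (0.27) and without negative control 1 (0.22), negative control 3 (0.25) or RAC3 sample 1 (0.24).

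The lower regulators were MAFK, NFE2L1 and TRIM16. MAFK, a small MAF partner of NRF2, had a log2 fold change of -0.39, and NFE2L1, a related factor, had -0.17. Neither passed with the GC trend removed, at -0.17 and -0.07. MAFK was also not called with DESeq2 (-0.39), nor NFE2L1 with library sizes alone as the scale (-0.11). TRIM16 had -0.58, and its call was lost without RAC3 sample 1 (-0.38). Without RAC3 sample 1, the regulators called higher numbered 3. With the GC trend removed, 7 regulators were higher and 3 lower, against 9.61% and 10.7% of all genes in that fit: KEAP1, SQSTM1 (from -0.07 to 0.10) and MAFF (from 0.12 to 0.30) were gained among the higher, and NFE2L3 (-0.22) and BTRC (-0.23) among the lower.

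Of 58 NRF2 target genes, 52 were tested, and they moved in both directions, with 11 higher (21.2%, against 13.3% of all genes), 9 lower (17.3%, against 15.3%) and 32 not called, at a median log2 fold change of 0.02. Outside the members, 8 of 45 targets were higher and 8 were lower, with a median of 0.02. The number higher was 7 without RAC3 sample 1, 6 without RAC3 sample 3 and 7 without negative control 2, and 3 with RAC3 samples 2 and 3 left out together. With library sizes alone as the scale, 15 targets were higher and 6 lower, against 2613 and 1381 of all 12941 genes tested. After removal of the GC trend 9 were higher and 8 lower, against 9.61% and 10.7% of the genes in that fit. The median was -0.01 without RAC3 sample 3, 0.00 without negative control 3, 0.01 without negative control 1, 0.05 with the GC trend removed and 0.08 with library sizes alone as the scale. OSGIN1, an oxidative stress-induced growth inhibitor, rose from 11.7 ± 1.44 to 19.0 ± 0.506 CPM (SD, n = 3 per group; log2 fold change 0.70, adjusted p = 9.8e-05 from edgeR). PRDX1, an abundant peroxiredoxin, rose from 435.7 ± 22.6 to 496.6 ± 18.3 CPM (log2 fold change 0.19, adjusted p = 0.0036 from edgeR), and reads of its processed pseudogenes could enter this count. ALDH3A2, a fatty aldehyde dehydrogenase, had a log2 fold change of 0.20, or 0.13 with the GC trend removed. With RAC3 samples 2 and 3 left out together, PRDX1 (0.15) and ALDH3A2 (0.22) were not called.

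Among the lower targets, SLC6A9, a glycine transporter, fell from 42.7 ± 3.15 to 28.5 ± 0.178 CPM (SD, n = 3 per group; log2 fold change -0.59, adjusted p = 9.9e-06 from edgeR). FTH1, the ferritin heavy chain, fell from 2322 ± 31.2 to 2048 ± 27.0 CPM (log2 fold change -0.18, adjusted p = 0.0005 from edgeR, and -0.10 with the GC trend removed), and has many near-identical pseudogenes. OSGIN1, SLC6A9 and KYNU were the 3 of 52 tested targets past the study's thresholds, against 4.68% of all genes. KYNU, named after its values were seen, was not called (log2 fold change 0.71, adjusted p = 0.054 from edgeR), but was called with library sizes alone as the scale (0.76) and among genes with at least 10 counts in every sample (0.70).

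Among the 8 lists, that of the enzymes of NADPH supply had the largest share of lower genes. Besides dehydrogenases that reduce NADP, it holds NAD kinases and other enzymes of the pentose phosphate pathway, among them PGLS, TKT and NADK2, which do not form NADPH themselves. It also holds FDXR, which is of none of these kinds and was not called (log2 fold change -0.13). Of 19 tested, 8 were lower (42.1%, against 15.3% of all genes) and 1 was higher (5.26%, against 13.3%), and the median log2 fold change was -0.15, or -0.14 with the GC trend removed and -0.09 with library sizes alone as the scale. IDH2, the mitochondrial isocitrate dehydrogenase, fell from 366.3 ± 22.5 to 244.6 ± 6.52 CPM (SD, n = 3 per group; log2 fold change -0.58, adjusted p = 4.7e-08 from edgeR). In the pentose phosphate pathway, PGD fell from 477.7 ± 4.20 to 360.4 ± 2.70 CPM (log2 fold change -0.41, adjusted p = 3.4e-07 from edgeR) and TKT from 407.4 ± 23.1 to 310.8 ± 14.9 CPM (log2 fold change -0.39, adjusted p = 7.2e-06 from edgeR). H6PD and PGLS, which act in the early steps of this route, had log2 fold changes of -0.39 and -0.38, and with the GC trend removed TKT had -0.25 and PGLS -0.18, still called. The higher gene was NADK2, a mitochondrial NAD kinase (log2 fold change 0.44, adjusted p = 1.6e-05 from edgeR). With each sample left out in turn, 7 to 9 enzymes of this list were lower.

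Of 42 glutathione genes tested, 5 were higher (11.9%) and 6 were lower (14.3%), against 13.3% and 15.3% of all genes, with a median log2 fold change of 0.02 that was -0.01 with the GC trend removed, between -0.03 and 0.00 with each sample left out in turn and 0.07 with library sizes alone as the scale. GPX3, a secreted glutathione peroxidase, rose from 78.4 ± 1.19 to 93.1 ± 4.20 CPM, while GPX4, which reduces lipid hydroperoxides, fell from 357.0 ± 15.3 to 284.1 ± 20.1 CPM (SD, n = 3 per group). Their log2 fold changes were 0.25 and -0.33 (adjusted p = 0.0021 and 7.3e-05 from edgeR), and that of GPX4 was -0.13 with the GC trend removed. GPX3 was not called with RAC3 samples 2 and 3 left out together (0.21). Of the other lower genes, GGT7 (-0.32), HAGH (-0.26), ETHE1 (-0.38) and SLC3A2 (-0.12) each lost the call with the GC trend removed (-0.14, -0.09, -0.19 and -0.04). GSTM1 (-0.21) also lost its call in that fit (-0.17). There, 4 genes of the list were higher and 4 lower, against 9.61% and 10.7% of all genes in that fit. CHAC1 (0.51) and GSTP1 (0.14) were gained among the higher and GSTM3 (-0.24), MGST2 (-0.21) and ESD (-0.28) among the lower, all 5 named after their values were seen. The call of GPX2 (0.28) was lost without RAC3 sample 3 (0.25) or negative control 2 (0.24). GLO1 (0.16) lost its call and turned to -0.03 with the GC trend removed, and lost it without RAC3 sample 3 (0.13), negative control 1 (0.11) or negative control 2 (0.15). Among the lower genes, HAGH was not called without RAC3 sample 1 (-0.20), and ETHE1 not without RAC3 sample 1 (-0.33) or 3 (-0.36) or negative control 1 (-0.36) or 2 (-0.37). SLC3A2 was not called without RAC3 sample 1 (-0.08) or 3 (-0.14) or negative control 1 (-0.11) or 3 (-0.12), and neither HAGH (-0.20) nor SLC3A2 (-0.07) was called with library sizes alone as the scale, nor SLC3A2 with the replicate block (-0.12). The number higher was 2 without RAC3 sample 3 and 3 without negative control 2, and the number lower was 3 without RAC3 sample 1 and 3 without RAC3 sample 3. With library sizes alone as the scale, 8 were higher and 3 lower, against 2613 and 1381 of all 12941 genes tested.

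In the thioredoxin and peroxiredoxin list, 7 of 25 genes were higher (28.0%, against 13.3% of all genes) and 3 were lower (12.0%, against 15.3%), with a median log2 fold change of 0.05. With the GC trend removed 5 were higher and 3 lower, against 9.61% and 10.7% of the genes in that fit. There SESN3 (0.188) and TXNL1 (0.055) lost their calls, while SESN2 (0.202) was gained among the higher and PRDX3 (-0.155) among the lower. These genes were named after their values were seen. Without RAC3 sample 3, 5 were higher. With library sizes alone as the scale 9 were higher, against 2613 of all 12941 genes tested. The median was 0.01 without RAC3 sample 2 and without RAC3 sample 3, 0.02 without negative control 2, 0.03 with the GC trend removed, 0.10 with library sizes alone as the scale and -0.08 with RAC3 samples 2 and 3 left out together. TXNIP, an inhibitor of thioredoxin, rose from 21.7 ± 0.558 to 29.2 ± 2.30 CPM (SD, n = 3 per group; log2 fold change 0.43, adjusted p = 0.00077 from edgeR), and MSRB3, a methionine sulfoxide reductase, from 3.10 ± 0.716 to 5.68 ± 0.977 CPM (log2 fold change 0.88, adjusted p = 0.0044 from edgeR). The peroxiredoxins PRDX2 and PRDX5 fell, with log2 fold changes of -0.26 and -0.22, in contrast to PRDX1. With the GC trend removed they were -0.13 and -0.05, and the call of PRDX5 was lost. SELENOP (0.19), a secreted selenoprotein, also lost its call with that trend removed (0.04), whereas NXN, nucleoredoxin, was lower in both fits (-0.27 and -0.18).

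The 12 haem and iron genes had 0 higher, also with DESeq2, with limma-voom and at an unadjusted p below 0.05 in edgeR (19.0% of all genes). With the GC trend removed 1 was higher, against 9.61% of the genes in that fit. With library sizes alone as the scale 1 was higher, against 2613 of all 12941 genes tested. Lower were 3 (25%, against 15.3% of all genes), FTH1, FTL and SLC48A1. The median log2 fold change of the list was -0.03, and -0.05 without RAC3 sample 2, RAC3 sample 3 or negative control 3. It turned to 0.04 with the GC trend removed and to 0.02 with library sizes alone as the scale. The calls of FTL (-0.10) and SLC48A1 (-0.40) were lost with the GC trend removed (0.00 and -0.30), and 1 gene was lower without RAC3 sample 1, RAC3 sample 3, negative control 2 or negative control 3. FTL was not called without negative control 1 (-0.08), 2 (-0.12) or 3 (-0.12) or RAC3 sample 1 (-0.07) or 3 (-0.10), nor with library sizes alone as the scale (-0.04) or the replicate block (-0.10). SLC48A1 was not called with DESeq2 (-0.40), library sizes alone as the scale (-0.35) or the replicate block (-0.40), nor without negative control 2 (-0.27) or 3 (-0.44) or RAC3 sample 1 (-0.40), 2 (-0.41) or 3 (-0.41).

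Of 12 scavengers of superoxide and peroxide, SOD2 and PON2 were higher (16.7%, against 13.3% of all genes), and 0 were lower with edgeR, DESeq2 or limma-voom. At an unadjusted p below 0.05 in edgeR, 5 were higher and 0 lower, against 19.0% and 20.3% of all genes. The median log2 fold change was 0.02. It was -0.02 without RAC3 sample 2, 0.00 without negative control 2, 0.03 without RAC3 sample 3 and 0.045 without RAC3 sample 1. With library sizes alone as the scale it was 0.07, and with the GC trend removed it was 0.05, there without SOD2. In that fit 0 were higher and 0 lower, against 9.61% and 10.7% of its genes. Without RAC3 sample 2, 1 was lower. The number higher was 1 without negative control 1, RAC3 sample 1, RAC3 sample 2 or RAC3 sample 3. With library sizes alone as the scale it was 5, against 2613 of all 12941 genes tested. SOD2, the mitochondrial superoxide dismutase, rose from 117.5 ± 2.47 to 147.1 ± 3.34 CPM (SD, n = 3 per group; log2 fold change 0.32, adjusted p = 5.6e-05 from edgeR) and could not enter the fit with the GC trend removed, since its identifier had no GC value. PON2 (0.19) lost its call with that trend removed (0.11) and without negative control 1 (0.10), RAC3 sample 1 (0.14), RAC3 sample 2 (0.21) or RAC3 sample 3 (0.22).

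NADPH oxidases are sources of superoxide, and RAC proteins can act as their activating subunits. Of 17 genes in the table, 9 were tested and 3 were higher (33.3%, against 13.3% of all genes), RAC3 itself, DUOX2 and NOX1. DUOX2 and NOX1 passed the filter on low counts only through the RAC3 samples, where they were higher. The number called, and the fold changes, p-values and calls of these genes, therefore describe this list and support nothing further. For DUOX2, 6, 7 and 4 counts in negative controls 1, 2 and 3 stood against 24, 15 and 20 in RAC3 samples 1, 2 and 3, and for NOX1, 2, 3 and 7 counts against 17, 13 and 13. Both were above all controls in all RAC3 samples but scarce, with mean FPKM of 0.197 and 0.404 with RAC3 overexpression. Their log2 fold changes were 1.72 and 1.78 (adjusted p = 0.0084 and 0.015 from edgeR), and DUOX2 lost its call without negative control 3 (1.43). NOX1 lost its call with DESeq2, which gave it no adjusted p (1.83), and without negative control 1 (1.53), negative control 2 (1.64) or RAC3 sample 1 (1.72). The number higher was 2 with DESeq2 and when any 1 of these 4 samples was left out, and 1, RAC3 itself, among genes with at least 10 counts in every sample, a filter that removed both DUOX2 and NOX1. The number lower was 0 with edgeR and DESeq2, 2 with limma-voom, 2 at an unadjusted p below 0.05 in edgeR (20.3% of all genes) and 2 without RAC3 sample 2. RAC3, DUOX2, NOX1 and NOXA1 were the 4 of 9 tested past the study's thresholds, against 4.68% of all genes. RAC3 is the overexpressed gene itself, and the limit given above for DUOX2 and NOX1 holds here too. NOXA1 was not called (-1.05, adjusted p = 0.055 from edgeR) except with limma-voom (-1.21) and without RAC3 sample 2 (-1.39). CYBA, the membrane subunit shared by several of these enzymes, and RAC1 were abundant at 238.5 and 179.0 FPKM in the negative controls and were not called (log2 fold changes -0.14 and 0.02, adjusted p = 0.053 and 0.76 from edgeR). CYBA turned to 0.07 with the GC trend removed and was called lower without RAC3 sample 2 (-0.19), with limma-voom (-0.14) and with both other filters (-0.14 each). With RAC3 samples 2 and 3 left out together, the log2 fold change of CYBA was -0.26. CYBB, NOX4 and NCF4 had at most 1 count in a sample.

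**Figure D5:**
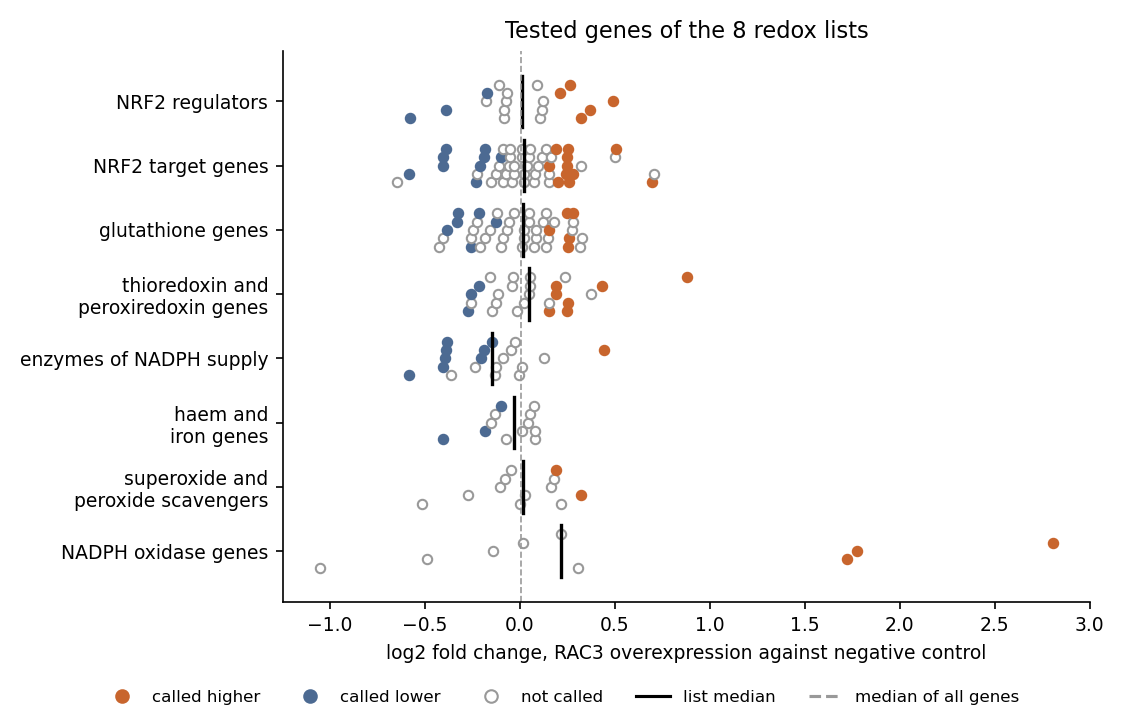
Log2 fold changes of the tested genes in 8 redox lists, which share some genes, with called genes filled (orange higher, blue lower), the median of each list as a black line and the median of all genes dashed. The enzymes of NADPH supply lie furthest to the left, with a median of -0.15 and 8 of 19 genes lower, while the NRF2 targets spread to both sides around a median of 0.02.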

How the data were processed

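Libraries of polyadenylated RNA were made with a NEBNext Ultra kit and read on a NovaSeq instrument from Illumina. The deposited table gives, made by the authors, a raw count per gene and sample without normalization, and an FPKM per gene and sample, scaled by library and transcript length. The submitters' processing notes name Bowtie2 2.2.8, HISAT2, StringTie 1.3.1 and DESeq2. Their roles, the genome build and the annotation are not given in the sources used here. The table's columns of group mean FPKM were not used.

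Samples were grouped by title. The count analysis used edgeR 4.0.16 under R 4.3.3 (filterByExpr, TMM, two-sided quasi-likelihood F test, no covariate, Benjamini-Hochberg adjustment over 12941 genes), and the biological coefficient of variation was 0.0533. Ratios were tested by exact permutation with SciPy 1.17.1 in Python 3.11.15, and figures were drawn with matplotlib 3.10.9. Positions, exon overlaps and GC content come from GENCODE release 29 (GRCh38), which holds 20113 of the 20332 identifiers, and 12863 of the genes tested (99.4%) had a GC value. Promoters come from RefSeq (GRCh38.p14).

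The members and lists were chosen with earlier results of these data known, and the lists were written from general knowledge and overlap. Named genes were the 9 members, RAC3, and in each list the called genes that averaged 10 or more counts per sample, at most 5 in each direction by smallest p. Tested genes of the oxidase and regulator lists could also be named, as could the 2 genes most correlated with each member. CYBB, NOX4, NCF4, FDXR and GSTM1 were named outside these rules. So were cell type markers, genes overlapping a member and genes said to be named after their values were seen. Alternatives were DESeq2 size factors, upper quartile scaling, library size alone, 2 other filters (only genes without any count removed, and at least 10 counts in every sample), DESeq2 1.42.0, limma-voom (limma 3.58.1), a term for the replicate number, removal of each library's GC trend (lowess, span 0.3), raw counts for the ratios, and leaving out each sample. Leaving out RAC3 samples 2 and 3 together was chosen after seeing the data. The study calls its samples independent RNA samples, and separate cultures are not stated, so p-values measure only the spread between these samples, which may be technical.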

Additional observations from a re-analysis of the deposited data

How the results depend on the processing

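Over the 16 alternatives of each member, NFE2L2 (log2 fold change 0.41 to 0.60), TXNRD1 (0.19 to 0.30) and NQO1 (-0.25 to -0.15) kept their direction and their call, and SRXN1 kept its direction and was never called. Of the 144 values of the 9 members, 133 kept direction and side of the threshold, 6 lost a call, 4 gained one and 1 turned. With the GC trend removed, 2 members were lower, HMOX1 turned to 0.014, GLO1 to -0.029 and CYBA to 0.073, and 2609 genes were called against 3691. With RAC3 samples 2 and 3 left out together, where the lone RAC3 sample is assumed to vary like the controls, 2395 genes were called, 3 NRF2 targets were higher, and GCLM lost its call (0.24), as did ALDH3A2, BACH2, DUOX2, ETHE1, GGT7, GLO1, GPX2, GPX3, MAFK, NFE2L1, NOX1, PON2, PRDX1 and SLC48A1. Fewer samples lower such counts by construction. When single samples were left out, the NRF2 targets called higher ranged from 6 to 9, and the log2 ratio of GCLC to GCLM differed by -0.067 to 0.087 between the groups. It was -0.014 with raw counts. For the GC trend and the ratio the cause was not tested. Replicate numbers did not pair the samples (correlations of -0.0873, -0.0455 and -0.0207 across 11221 genes), and with the replicate block 3261 genes were called, with 4 members higher and 1 lower. Scaling by library size alone moved the median of all genes by 0.056. A count of 0 allows up to 3 counts, between 0.165 and 0.217 CPM in these libraries, for counting error only. This concerns genes given with 0 counts in a sample, such as NOX4, NCF4, KDR and AL121758.1, and not the members. Folds were small, the groups held 3 samples each, and protein, NRF2 activity and redox state were not measured.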
